A study of Mus musculus with 27 samples.

Results

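The genes of MHC class II (MHCII) presentation were measured in epididymal adipose tissue (EAT) of 27 male C57BL/6J mice with Affymetrix GeneChips, each carrying the RNA of 1 mouse. The 8 genes are Ciita, H2-Aa, H2-Ab1, H2-Eb1, Cd74, H2-DMa, H2-Oa and H2-Ob, out of 18193 genes measured. They were chosen as a named pathway, with earlier results of these data known, and matched by symbol to probe sets annotated to 1 gene. Of the 45101 probe sets on the array, 16 belonged to the 8 genes, and each gene was read on the one whose mean over the 27 mice was highest.

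The diets were a Western diet with 0.05% quercetin (WQ, 9 mice), the Western diet without it (WD, 9 mice) and the AIN93G diet (Control, 9 mice). The Western diet is rich in butter fat, cholesterol and sucrose. All mice were 5 weeks old on arrival, had 1 week on standard chow, and were then fed for 18 weeks in cages of 3 mice. Which mice shared a cage is not given, so that cage and mouse cannot be told apart. The questions were what the Western diet did to these genes in EAT and what quercetin did on top of it.

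MHCII molecules are pairs of an alpha and a beta chain that show peptides from engulfed material to CD4+ T cells. The invariant chain, Cd74, escorts new pairs to endosomes, where cathepsins trim it to a short remnant, H2-DM swaps that remnant for antigen peptide, and H2-DO holds H2-DM back. Ciita is the coactivator that switches the set on, at promoters whose X and Y boxes bind RFX, CREB and NF-Y. In EAT the set is known from macrophages, dendritic cells and B cells, and also from adipocytes after interferon gamma.

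All members with an H2 name, 6 of the 8, lie on chromosome 17. RefSeq's table of promoter windows (250 bases before and 50 bases after the start of a gene, GRCm38.p6) matched 5 of the 8 genes by symbol. In 4 of them, H2-Aa, H2-Eb1, H2-Oa and H2-Ob, the X box core letters GCAAC were followed on the gene's strand by the Y box core letters ATTGG. The 130 bases before the start are shown for these 4, since H2-Aa and H2-Eb1 changed with the Western diet and H2-Oa and H2-Ob did not pass the test, with both cores in capitals.
H2-Aa: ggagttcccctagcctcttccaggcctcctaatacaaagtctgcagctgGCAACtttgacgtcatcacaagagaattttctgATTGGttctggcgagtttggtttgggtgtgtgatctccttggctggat
H2-Eb1: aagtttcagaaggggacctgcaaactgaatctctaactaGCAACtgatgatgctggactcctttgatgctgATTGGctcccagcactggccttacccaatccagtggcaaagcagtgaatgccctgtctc
H2-Oa: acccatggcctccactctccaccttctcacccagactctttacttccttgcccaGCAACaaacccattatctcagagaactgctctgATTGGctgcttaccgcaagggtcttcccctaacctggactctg
H2-Ob: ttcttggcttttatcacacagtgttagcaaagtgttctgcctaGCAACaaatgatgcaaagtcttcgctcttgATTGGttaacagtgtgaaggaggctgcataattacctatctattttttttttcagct

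The stretch of H2-Aa is chr17:34287824-34287953 on the minus strand. Those of H2-Eb1 (chr17:34305737-34305866), H2-Oa (chr17:34092249-34092378) and H2-Ob (chr17:34238775-34238904) are on the plus strand. Counted from the base before the start as -1, the X core begins at -81 in H2-Aa, -91 in H2-Eb1, -76 in H2-Oa and -87 in H2-Ob. The bases between the 2 cores numbered 28 in H2-Aa, 27 in H2-Eb1, 28 in H2-Oa and 25 in H2-Ob. Searched on both strands, GCAAC occurred in 35.2% of all 32851 windows and ATTGG in 37.4%, and the 2 cores do not overlap each other. GCAAC followed by ATTGG with 20 to 40 bases between them, a spacing set after these 4 sequences had been read, occurred in 1.01% of windows. The 2 windows of H2-DMa, which changed with the Western diet, did not hold the pair. These windows (chr17:34122582-34122881 and chr17:34125268-34125567) lie inside the span listed for the gene (34119693 to 34139101). The bases before the listed start of H2-DMa were thus not searched. The match is a description of letters only, and it did not divide the genes that changed with diet from those that did not pass the test.

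Some arrays stood apart in markers of other tissues. Control replicate 3 was high in lymph node markers (mean log2 signal of 7 markers 5.52, against a median of 3.31 in Control mice). Control replicate 6 was high in testis and epididymis markers, Control replicates 2 and 4 in smooth muscle markers, and WD replicates 4 and 6 in liver markers. Liver markers varied widely below that limit too. Their mean log2 signal was 10.34 in WQ replicate 8 and 9.80 in Control replicate 1, against medians of 6.84 in WQ, 6.00 in WD and 5.77 in Control mice. Leaving out WD replicates 4 and 6 thus did not leave out every array with raised liver markers. The protocol text of the labels names liver as the source of the RNA, whereas the tissue label is EAT. The mean log2 signal of 7 adipocyte markers was 12.4 to 12.6 in WQ, 12.5 to 12.7 in WD and 12.1 to 12.7 in Control mice. Where a call of a member or a correlation named below changed without Control replicate 3, both values are given.

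The Western diet raised 6 of the 8 genes: Ciita, H2-Aa, H2-Ab1, H2-Eb1, Cd74 and H2-DMa. They had log2 fold changes of 0.61 to 0.94 over Control mice, and H2-Oa and H2-Ob did not pass the test. The test was limma on the log2 normalized signal of all 27 arrays, and p was adjusted over the 18193 genes by the method of Benjamini and Hochberg, with calls at an adjusted p under 0.05. Of all genes, 11.3% were higher and 6.44% lower in WD than in Control mice by this test. The median over the 8 genes was 0.84 on the log2 scale, against about 0 over all genes. Without Control replicate 3 the same 6 genes passed, with log2 fold changes of 0.69 to 1.06, and 12.9% of all genes were higher. In none of the 8 genes did the groups separate fully, as 0.951% of all genes did in this direction.

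None of the 8 genes passed an adjusted p under 0.05 between WQ and WD mice. All 8 had a lower mean in WQ than in WD mice, with log2 fold changes of -0.56 to -0.14 and a median of -0.46, against 0.02 over all genes. In H2-Oa the sign turned without normalization between arrays (0.02). By limma 0.0770% of all genes were lower in WQ mice. At an unadjusted p under 0.05, 4 of the 8 (Cd74, Ciita, H2-Ab1 and H2-Eb1) were lower, as were 6.41% of all genes. The number of members past the threshold was also 4 with array weights in limma, which called 3.38% of all genes lower, and 4 by the test of the study's methods, which called 2.91% lower. Against Control mice none of the 8 passed in WQ mice (5.00% of all genes were higher and 1.65% lower). At an unadjusted p under 0.05, 3 of the 8 (Cd74, H2-Aa and H2-DMa) were higher in WQ than in Control mice, as were 14.5% of all genes, and the test of the methods called 1 (H2-Aa), with 5.35% of all genes higher. Without Control replicate 3, 3 of the 8 (Cd74, H2-Aa and H2-DMa) passed in WQ over Control mice, with 7.74% of all genes higher. The comparisons share groups, and their values are given side by side.

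**Figure D1:**
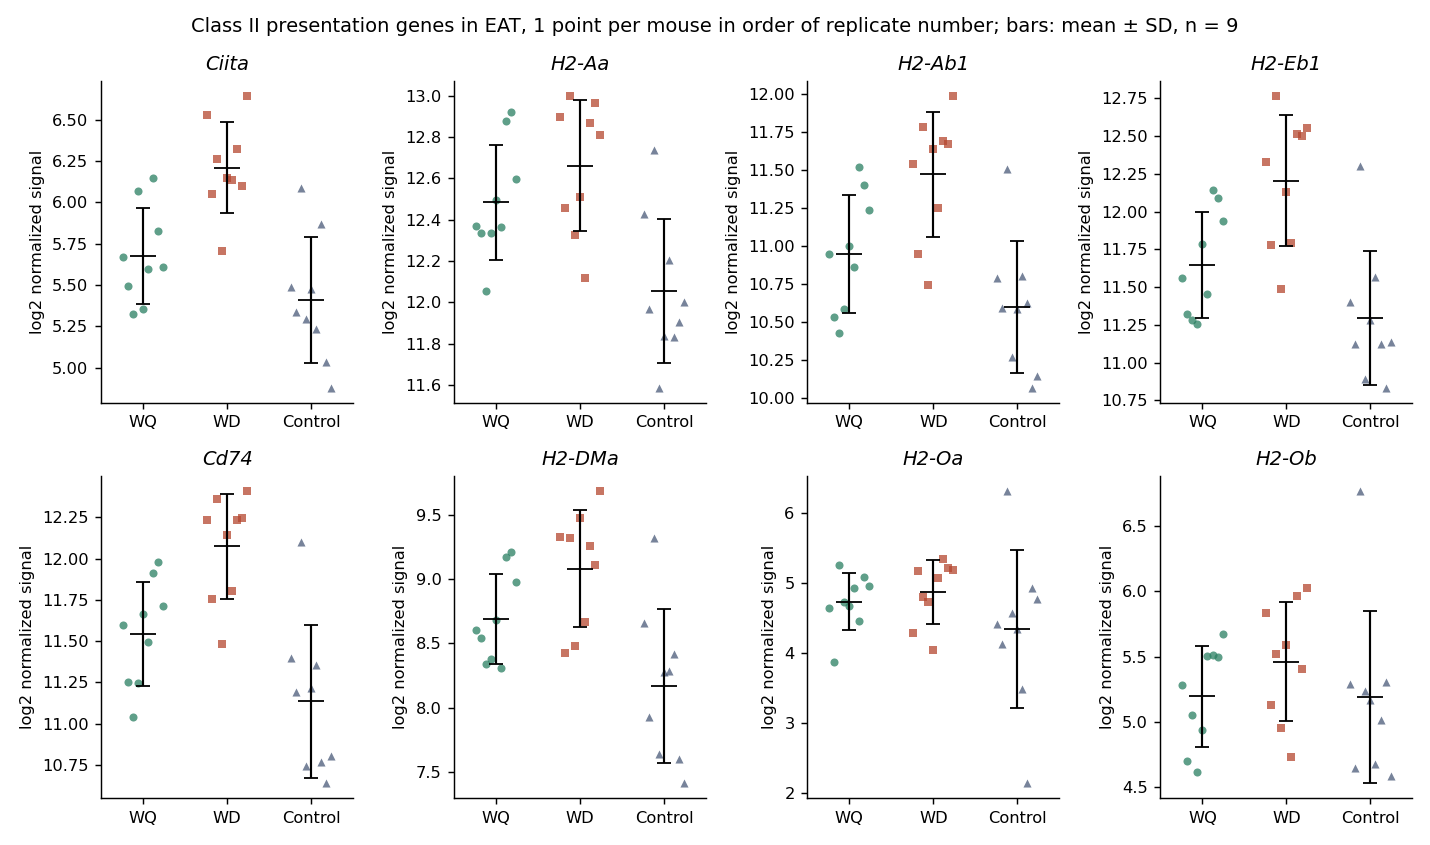
Log2 normalized signal (y axis) of the 8 genes in WQ, WD and Control mice; each point is 1 mouse, in order of replicate number, and bars are the mean ± SD (n = 9 each). The highest Control point is Control replicate 3 in all 8 panels.

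Ciita, the coactivator of the set, had normalized signals of 40.2 to 70.9 (median 48.8) in WQ mice, 52.2 to 100.1 (median 70.9) in WD mice and 29.4 to 68.0 (median 40.4) in Control mice. In 7 of 9 WD mice it lay above every Control mouse, and in 6 of 9 WQ mice below every WD mouse. Its mean log2 signal was 6.21 ± 0.28 in WD and 5.41 ± 0.38 in Control mice (SD, n = 9), a log2 fold change of 0.80 (95% interval 0.47 to 1.13, limma adjusted p = 0.00076). In WQ mice the mean log2 signal was 5.68 ± 0.29, a log2 fold change of -0.53 against WD mice (95% interval -0.86 to -0.21, limma adjusted p = 0.117). Over Control mice the log2 fold change in WQ mice was 0.27 (limma adjusted p = 0.347). WQ replicates 4, 7 and 8 lay within the WD range and the other 6 WQ mice below it.

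H2-Aa, the alpha chain of I-A, had normalized signals of 4254 to 7766 (median 5288) in WQ mice, 4446 to 8190 (median 7176) in WD mice and 3071 to 6825 (median 4010) in Control mice. The groups overlapped in all comparisons, and 5 of 9 WD mice lay above every Control mouse. H2-Aa rose in WD over Control mice, by a log2 fold change of 0.61 (95% interval 0.32 to 0.89, limma adjusted p = 0.0032), the smallest of the 6 rises. The difference between WQ and WD mice was -0.18 on the log2 scale (95% interval -0.47 to 0.11, limma adjusted p = 0.654). Over Control mice it was 0.43 in WQ mice (95% interval 0.14 to 0.72, limma adjusted p = 0.064). It passed without Control replicate 3 (0.51, limma adjusted p = 0.014), without Control replicate 1 (0.47, limma adjusted p = 0.040) and without WQ replicate 3 (0.48, limma adjusted p = 0.033).

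H2-Ab1, the beta chain of I-A, had normalized signals of 1377 to 2937 (median 1977) in WQ mice, 1715 to 4072 (median 3196) in WD mice and 1071 to 2918 (median 1542) in Control mice. Control replicate 3 was the only Control mouse in the range of the 7 highest WD mice. The mean log2 signal was 11.47 ± 0.41 in WD and 10.60 ± 0.43 in Control mice (SD, n = 9), a log2 fold change of 0.87 (95% interval 0.50 to 1.25, limma adjusted p = 0.0011). In WQ mice it was 10.95 ± 0.39, a log2 fold change of -0.53 against WD mice (95% interval -0.90 to -0.15, limma adjusted p = 0.167). In WQ replicates 2, 3 and 4 it lay below every WD mouse.

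H2-Eb1, the beta chain of I-E, is transcribed in C57BL/6J mice although the partner gene H2-Ea is silent in this haplotype. Its normalized signals were 2444 to 4526 (median 3019) in WQ mice, 2868 to 6969 (median 5139) in WD mice and 1823 to 5041 (median 2249) in Control mice. Control replicate 3, at 12.30 on the log2 scale, stood apart from the other 8 Control mice at 10.83 to 11.57. H2-Eb1 rose in WD over Control mice, by a log2 fold change of 0.91 (95% interval 0.54 to 1.28, limma adjusted p = 0.00079). Between WQ and WD mice the log2 fold change was -0.56 (95% interval -0.93 to -0.18, limma adjusted p = 0.142), and 4 of 9 WQ mice lay below every WD mouse. H2-Ea itself had mean log2 signals of 2.21 ± 0.10 in WQ, 2.32 ± 0.22 in WD and 2.06 ± 0.38 in Control mice (SD, n = 9), with no call in any comparison.

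Cd74, the invariant chain, rose in WD over Control mice by about as much as H2-Ab1, H2-Eb1 and H2-DMa, whose log2 fold changes were 0.87 to 0.91. Its normalized signals were 2110 to 4039 (median 3101) in WQ mice, 2861 to 5447 (median 4814) in WD mice and 1595 to 4389 (median 2336) in Control mice. Cd74 in 6 of 9 WD mice lay above every Control mouse, and all 9 WD mice lay above the other 8 once Control replicate 3 was left out. The mean log2 signal was 12.07 ± 0.32 in WD and 11.14 ± 0.46 in Control mice (SD, n = 9), a log2 fold change of 0.94 (95% interval 0.60 to 1.28, limma adjusted p = 2.1e-04). In WQ mice it was 11.54 ± 0.32, and the log2 fold change was -0.53 against WD mice (95% interval -0.87 to -0.19, limma adjusted p = 0.130). Over Control mice the log2 fold change in WQ mice was 0.41 (limma adjusted p = 0.133), and 0.53 without Control replicate 3 (limma adjusted p = 0.019), which ended on the other side of the threshold.

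H2-DMa, the alpha chain of the peptide editor H2-DM, had normalized signals of 317 to 594 (median 390) in WQ mice, 343 to 825 (median 613) in WD mice and 170 to 638 (median 311) in Control mice. WD replicates 2, 4 and 6 lay at 8.42 to 8.67 on the log2 scale and the other 6 WD mice at 9.11 to 9.69, where Control replicate 3 was the only Control mouse. H2-DMa rose in WD over Control mice, by a log2 fold change of 0.91 (95% interval 0.48 to 1.35, limma adjusted p = 0.0030). The log2 fold change was -0.39 in WQ against WD mice (95% interval -0.82 to 0.04, limma adjusted p = 0.437). Over Control mice it was 0.52 in WQ mice (limma adjusted p = 0.138), and 0.67 without Control replicate 3 (limma adjusted p = 0.026). WD replicates 4 and 6 are also the 2 arrays high in liver markers.

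The partner chain of H2-DM is encoded by H2-DMb1 and H2-DMb2, and 2 probe sets are annotated to both, so that their signal belongs to no single gene. On these, mean log2 signals were 8.07 and 8.30 in WQ mice, 8.89 and 9.25 in WD mice and 7.27 and 7.58 in Control mice. In a fit of all 45037 probe sets their log2 fold changes were 1.62 and 1.68 in WD over Control mice (limma adjusted p = 6.4e-05 and 5.7e-05). Between WQ and WD mice they were -0.81 and -0.96 (limma adjusted p = 0.136 and 0.096). Over these probe sets WD mice were high and varied little, with SDs of 0.25 and 0.19 against 0.58 and 0.70 in Control mice. The probe set used for H2-DMb2 alone did not share this, with a log2 fold change of -0.45 in WD over Control mice (limma adjusted p = 0.135 over genes). Other probe sets annotated to H2-DMb2 alone had 0.30 and -0.26 in that comparison (limma adjusted p = 0.273 and 0.553 over probe sets).

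H2-Oa and H2-Ob encode the chains of H2-DO, the inhibitor of H2-DM, which is known mainly from B cells and thymus. H2-Oa had normalized signals of 14.5 to 38.1 (median 26.5) in WQ mice, 16.4 to 40.4 (median 33.5) in WD mice and 4.39 to 79.4 (median 21.2) in Control mice. Both the lowest and the highest of the 27 values were of Control mice, replicate 7 and replicate 3. The log2 fold change was 0.53 in WD over Control mice (95% interval -0.17 to 1.23, limma adjusted p = 0.310) and -0.14 in WQ against WD mice (95% interval -0.84 to 0.56, limma adjusted p = 0.923). The difference between WD and Control mice depended on single arrays, with 0.25 without Control replicate 7 (limma adjusted p = 0.587), and its sign turned when signals were set to at least 32 (-0.04, limma adjusted p = 1). That floor lay above the median signals of WQ and Control mice, so it hid most of the low values.

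H2-Ob had normalized signals of 24.4 to 50.9 (median 38.8) in WQ mice, 26.5 to 65.3 (median 46.0) in WD mice and 24.0 to 109 (median 35.8) in Control mice. Control replicate 3, at 6.77 on the log2 scale, lay far above the other 8 Control mice at 4.59 to 5.30 and above every WD and WQ mouse. The log2 fold change was 0.27 in WD over Control mice (95% interval -0.22 to 0.77, limma adjusted p = 0.478) and -0.27 in WQ against WD mice (95% interval -0.76 to 0.23, limma adjusted p = 0.708). Without Control replicate 3 the first was 0.47 (limma adjusted p = 0.095), and that of H2-Oa was 0.77 (limma adjusted p = 0.067). The 95% interval of H2-Oa spans the log2 fold changes of all 6 genes that rose, and that of H2-Ob reaches that of H2-Aa. Ciita, H2-Oa and H2-Ob are the 3 members whose mean signal was not above the median of genes.

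**Figure D2:**
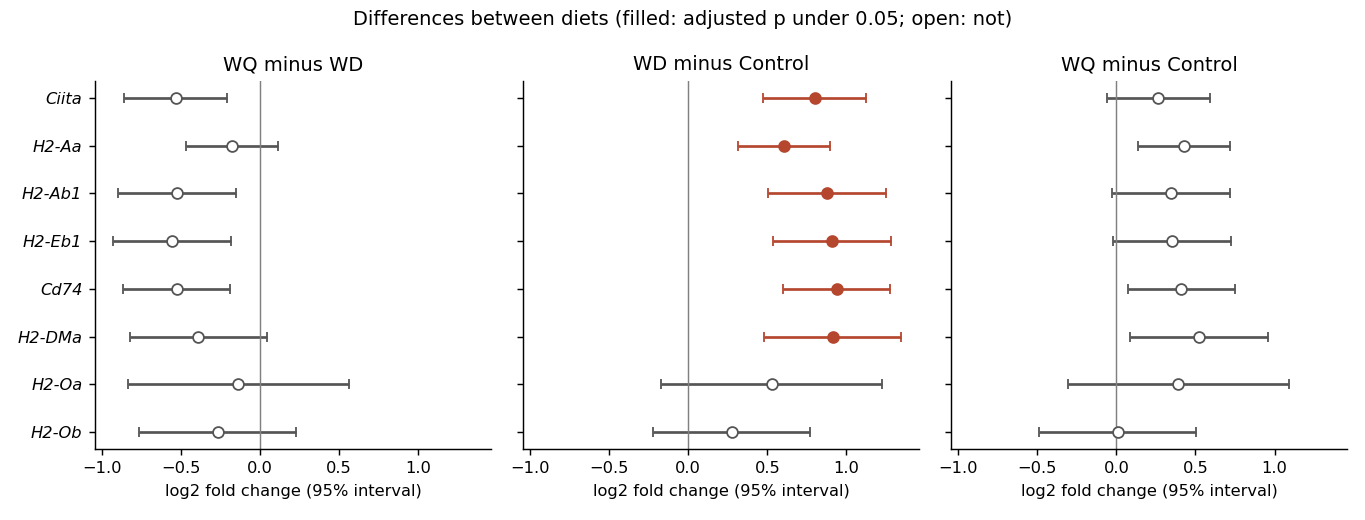
Log2 fold change (x axis, points) with its 95% interval (bars) for the 8 genes (y axis) in WQ minus WD, WD minus Control and WQ minus Control mice, from limma on 27 arrays. The 6 filled points, all in WD minus Control, passed an adjusted p of 0.05, and all 8 points of WQ minus WD lie below 0.

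Whether members changed in different measure was tested for 5 pairs in the 3 comparisons, 15 tests, on the difference of 2 log2 signals of the same array. H2-Ob minus H2-DMa was -3.62 ± 0.24 in WD and -2.98 ± 0.48 in Control mice (SD, n = 9), a difference of -0.64 (exact two-sided permutation test over 48620 splits, p = 0.0021, adjusted p = 0.031). So on the probe set used, H2-Ob was lower relative to H2-DMa in WD mice. Another probe set, annotated to both Gm20506 and H2-Ob, had a log2 fold change of 0.97 in WD over Control mice (limma adjusted p = 0.184). Its mean log2 signals were low (3.96 in WD and 2.99 in Control mice), and the pair was not tested on it. The call was lost without the 2 arrays high in liver markers (difference -0.61, adjusted p = 0.146). It was also lost when any 1 of 9 arrays was left out (Control replicates 4 and 8, WD replicates 1, 3 to 6, 8 and 9, adjusted p = 0.051 to 0.084). In WQ over Control mice the same difference was -0.51 (exact permutation p = 0.020, adjusted p = 0.147), or -0.60 without WQ replicate 6 (adjusted p = 0.044), and in WQ over WD mice it was 0.12 (exact permutation p = 0.392, adjusted p = 0.877). H2-Oa minus H2-DMa differed by -0.38 between WD and Control mice (exact permutation p = 0.418, adjusted p = 0.877). With single arrays left out it was -0.69 (without Control replicate 7) to -0.23 (without WD replicate 5). With signals set to at least 32 it was -0.95 and passed (exact permutation, adjusted p = 0.0046). That floor lay above the median H2-Oa signals of WQ and Control mice (26.5 and 21.2) and flattened H2-Oa. The difference there mostly carried the H2-DMa rise of 0.91, so it cannot show a change of H2-Oa. For H2-Eb1, Cd74 and Ciita, each set against H2-Ab1, the differences between diets were -0.08 to 0.06, with adjusted p of 0.877 to 0.970 in the exact permutation tests.

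Genes with several probe sets gave changes of unequal size. The 4 probe sets of H2-Aa had log2 fold changes of 0.43, 0.61, 1.11 and 1.05 in WD over Control mice, all past the threshold in the fit of all probe sets, where 7.81% of probe sets were higher. In WQ against WD mice these 4 had -0.23, -0.18, -0.45 and -0.59. The probe set used for H2-Aa, the second of each list, was thus at the low end of both. Those of H2-Ab1 ran from 0.87 to 1.27 in WD over Control mice and from -0.65 to -0.53 in WQ against WD mice. For Ciita the 3 probe sets had 0.80, 0.89 and 0.55 in WD over Control mice, and the third did not pass (limma adjusted p = 0.229). The probe set of H2-DMa that was not used had 1.21 in WD over Control mice and 1.01 in WQ over Control mice, and both passed (limma adjusted p = 0.0024 and 0.026).

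**Figure D3:**
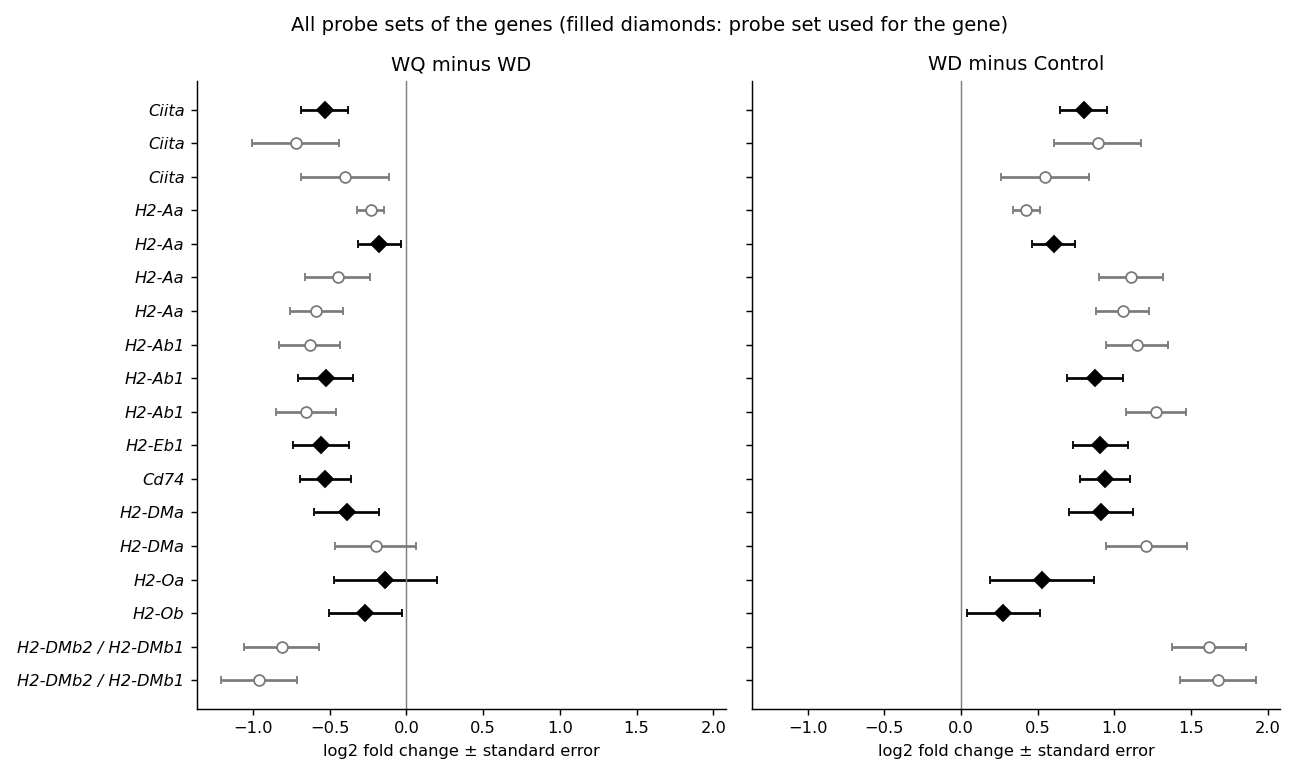
Log2 fold change ± standard error (x axis) of the 16 single-gene probe sets of the 8 genes and of the 2 probe sets shared by H2-DMb2 and H2-DMb1 (y axis), in WQ minus WD (left) and WD minus Control mice (right); filled diamonds are the probe sets used. All 18 points lie below 0 on the left and above 0 on the right.

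Across the 27 mice, with the mean of each diet removed, Cd74, H2-Aa, H2-Ab1, H2-Eb1 and H2-DMa varied together. Pearson's r of their log2 signals was 0.77 to 0.95 over the 10 pairs of these 5 genes. Ciita had r of 0.52 to 0.75 with them and H2-Ob 0.64 to 0.73. H2-Oa stood apart, at 0.06 to 0.31 with the 5 and 0.48 with H2-Ob. Without Control replicate 3 the 5 genes kept r of 0.70 to 0.94, H2-Ob had 0.50 to 0.61 and Ciita 0.39 to 0.68 with them, and H2-Oa had -0.34 to 0.02 with them and 0.15 with H2-Ob. These r are descriptions over mice, and the points of a mouse share its array and its mix of cells.

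**Figure D4:**
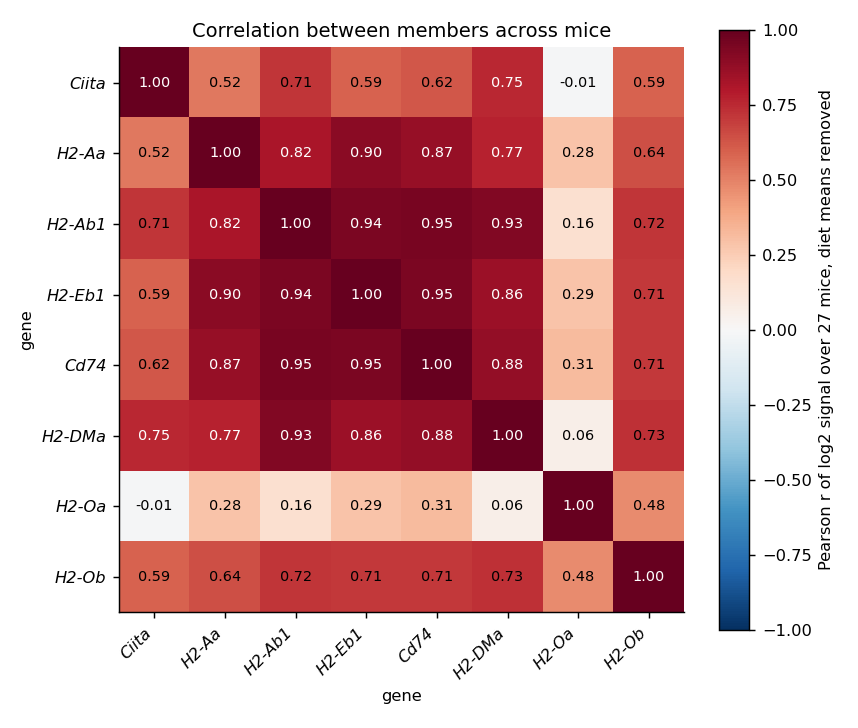
Pearson's r between the log2 signals of each pair of the 8 genes (both axes) over 27 mice after diet means were removed; red is positive and blue negative. The block of H2-Aa, H2-Ab1, H2-Eb1, Cd74 and H2-DMa is dark red (0.77 to 0.95) and H2-Oa is pale.

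The genes most like H2-Ab1 by the same r, among 9096 genes above the median mean, were Lrmp (0.94), Itgb2 (0.92), Prex1 (0.91), Arhgap30 (0.91), Lyz2 (0.90) and Cybb (0.90). Itgb2 is the beta-2 integrin of leukocytes, Lyz2 a lysozyme of macrophages and neutrophils, and Cybb the membrane subunit of the phagocyte oxidase. All 6 rose in WD over Control mice, with log2 fold changes of 0.95 to 2.01. Without Control replicate 3 their r with H2-Ab1 was 0.87 to 0.92, and 5 of the 6 were still among the 6 most like it, all but Lyz2. Those most like H2-Ob were Ifi209 (0.85), Ikzf1 (0.83), Arhgap45 (0.82), Psmb9 (0.82), Syk (0.79) and Cytip (0.78). Ikzf1 is a transcription factor of lymphocyte development, Psmb9 an immunoproteasome subunit, and Syk a kinase of immune receptors. They also rose in WD over Control mice, by 0.42 to 1.15 on the log2 scale. Without Control replicate 3 their r with H2-Ob was 0.57 (Cytip) to 0.74 (Arhgap45), and 4 of the 6 were still among the 6 most like it, all but Syk and Cytip.

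Other genes of the pathway differed by step. All 8 of the measured proteases and enzymes of antigen processing rose in WD over Control mice, and the middle of their log2 fold changes was 0.66. Ctss, the cathepsin that trims the invariant chain in professional antigen-presenting cells, had mean log2 signals of 11.60 ± 0.81 in WQ, 12.40 ± 0.45 in WD and 10.70 ± 0.63 in Control mice (SD, n = 9). Its log2 fold change was 1.70 in WD over Control mice (limma adjusted p = 1.3e-04) and -0.80 in WQ against WD mice (limma adjusted p = 0.178). Lgmn, an asparagine endopeptidase of lysosomes, had 1.73 in WD over Control mice (limma adjusted p = 3.5e-05) and -1.04 in WQ against WD mice (limma adjusted p = 0.056). Ctsd, a lysosomal aspartic protease, had 0.64 in WD over Control mice (limma adjusted p = 1.4e-05), and was the 1 of the 8 that was higher in WQ than in Control mice (0.41, limma adjusted p = 0.0033).

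The DNA-binding factors of class II promoters showed no common direction. Of 7 measured, 1 was higher (Nfya, a subunit of NF-Y, log2 fold change 0.36, limma adjusted p = 0.0054) and 1 lower (Creb1, -0.26, limma adjusted p = 0.033) in WD than in Control mice. Creb1 was also lower in WQ than in Control mice (-0.33, limma adjusted p = 0.020). Rfxank, a subunit of RFX, had -0.43 in WD over Control mice (limma adjusted p = 0.134). None of the 7 passed in WQ against WD mice.

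On the interferon gamma route to Ciita, 4 of 7 measured genes rose in WD over Control mice, and the median over the 7 was 0.29 on the log2 scale. Jak1, a kinase of the interferon gamma receptor, had 0.36 (limma adjusted p = 0.0010), and it was the 1 gene of all these lists that passed in WQ against WD mice (-0.32, limma adjusted p = 0.046). The other 3, named after their values were seen, were the receptor chains Ifngr1 and Ifngr2 and the transcription factor Irf8, with 0.29, 0.59 and 1.12. The Jak1 call in WQ against WD mice was lost with limma without a trend and without WD replicate 7, where no gene passed. Ifng had mean log2 signals of 2.53 ± 0.97 in WQ, 2.44 ± 1.38 in WD and 2.87 ± 1.19 in Control mice (SD, n = 9). At this low signal a difference in Ifng was not detectable.

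Of 8 genes of costimulation and surface turnover, 3 rose in WD over Control mice and none passed in WQ against WD mice. Marchf1, the ubiquitin ligase that takes class II and Cd86 off the surface, had 1.11 in WD over Control mice (limma adjusted p = 1.1e-04) and -0.62 in WQ against WD mice (limma adjusted p = 0.115). Cd83, which opposes Marchf1, had 1.18 (limma adjusted p = 0.0016) and Cd86, a ligand of Cd28, 0.62 (limma adjusted p = 0.010) in WD over Control mice. None of 7 listed T cell genes passed in any comparison. Their mean log2 signal was low, at 3.64 to 4.59 in WQ, 3.63 to 4.64 in WD and 3.51 to 5.58 in Control mice. At such signals a difference could be missed. Cd28 had 0.47, Cd4 0.34 and Cd3g -0.09 in WD over Control mice (limma adjusted p = 0.180, 0.434 and 0.880). Of the remaining class II chains, H2-Eb2 had -0.76 in WD over Control mice (limma adjusted p = 0.198). Its mean log2 signals were also low, at 2.95 in WQ, 2.45 in WD and 3.22 in Control mice.

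Macrophage markers rose with these genes in WD over Control mice, fewer of the dendritic cell markers did, and most B cell markers did not pass. Of 10 macrophage markers 8 rose in WD over Control mice (median log2 fold change 1.21), all but Mertk and Cd163. None of the 10 passed in WQ against WD mice (median -0.59), and 2, Adgre1 and Cd68, were higher in WQ than in Control mice. Their mean log2 signal was 8.62 to 9.71 in WQ, 9.12 to 10.16 in WD and 8.26 to 9.18 in Control mice. Of 9 dendritic cell markers 3, Itgax, Batf3 and Clec10a, rose in WD over Control mice (median of the 9 was 0.64). Itgax encodes CD11c, which the study also names as a marker of M1 macrophages. Flt3, Zbtb46, Xcr1, Cd209a, Siglech and Ccr7 did not pass, with log2 fold changes of -0.25 (Zbtb46) to 1.09 (Flt3, limma adjusted p = 0.084). The mean log2 signal of the 9 markers was 5.72 to 6.40 in WQ, 6.07 to 6.88 in WD and 5.27 to 6.40 in Control mice. Of 9 B cell markers 1, Cd22, was higher in WD than in Control mice. Their median was -0.33 in WD over Control mice and 0.18 in WQ against WD mice. Both medians are the value of 1 gene, Ebf1, which had the highest signal of the 9. The 9 markers shared no direction. They ran from -1.2 (Cd79a) to 0.90 (Cd22) in WD over Control mice and from -0.44 (Fcrla) to 0.84 (Pax5) in WQ against WD mice. Their mean log2 signal was 4.44 to 5.62 in WQ, 4.66 to 5.30 in WD and 4.02 to 6.98 in Control mice. The highest was Control replicate 3, and the next Control mouse was replicate 1 at 5.38. The markers named here were singled out after their values were seen. In whole tissue, fewer cells of a type and less RNA per cell cannot be told apart, and the part of these cell types in the class II changes was not tested.

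Within a diet, 4 members were set against the 2 marker lists over the 9 mice, 24 relations in all. H2-Aa followed the macrophage markers in WQ mice (r = 0.93, exact permutation p = 3.1e-04, adjusted p = 0.0074, rho = 0.90, exact permutation p = 0.0022, adjusted p = 0.017), and leaving out the 2 mice most distant from the middle of the marker values gave 0.95. In WD mice r was 0.86 (exact permutation p = 0.0033, adjusted p = 0.020, rho = 0.87, p = 0.0045, adjusted p = 0.027) and 0.71 without such 2 mice. The latter were WD replicates 4 and 6, which are also the arrays high in liver markers. In Control mice r was 0.74 (exact permutation p = 0.023, adjusted p = 0.060, rho = 0.43, p = 0.250, adjusted p = 0.375), and it rested on 2 mice, with -0.12 without them. Without Control replicate 3 alone r was 0.45 (exact permutation, adjusted p = 0.398). That relation passed with arrays shifted to the same median (r = 0.88, exact permutation, adjusted p = 0.0099) and without normalization (r = 0.91, exact permutation, adjusted p = 0.0075).

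By r, 6 of the 24 relations passed, the pair of H2-Aa among them. H2-DMa followed the macrophage markers in WQ mice (r = 0.89, exact permutation p = 0.0031, adjusted p = 0.020, rho = 0.80, p = 0.014, adjusted p = 0.066), and r was 0.81 without 2 mice. In Control mice it had r = 0.90 (exact permutation p = 8.5e-04, adjusted p = 0.010, rho = 0.90, p = 0.0020, adjusted p = 0.017) and 0.68 without 2 mice. Ciita followed the macrophage markers in Control mice (r = 0.79, exact permutation p = 0.011, adjusted p = 0.044, rho = 0.90, p = 0.0020, adjusted p = 0.017), and r was 0.65 without 2 mice. Both Control relations were lost without Control replicate 3, with r of 0.79 for H2-DMa (exact permutation, adjusted p = 0.100) and 0.61 for Ciita (adjusted p = 0.243). H2-Ob passed with B cell markers in Control mice by r and not by rho (r = 0.90, exact permutation p = 0.0097, adjusted p = 0.044, rho = 0.58, p = 0.108, adjusted p = 0.299). Without Control replicates 3 and 6 that r was 0.45, so that it rested on those mice. Without Control replicate 3 alone it was 0.55 (exact permutation, adjusted p = 0.244).

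**Figure D5:**
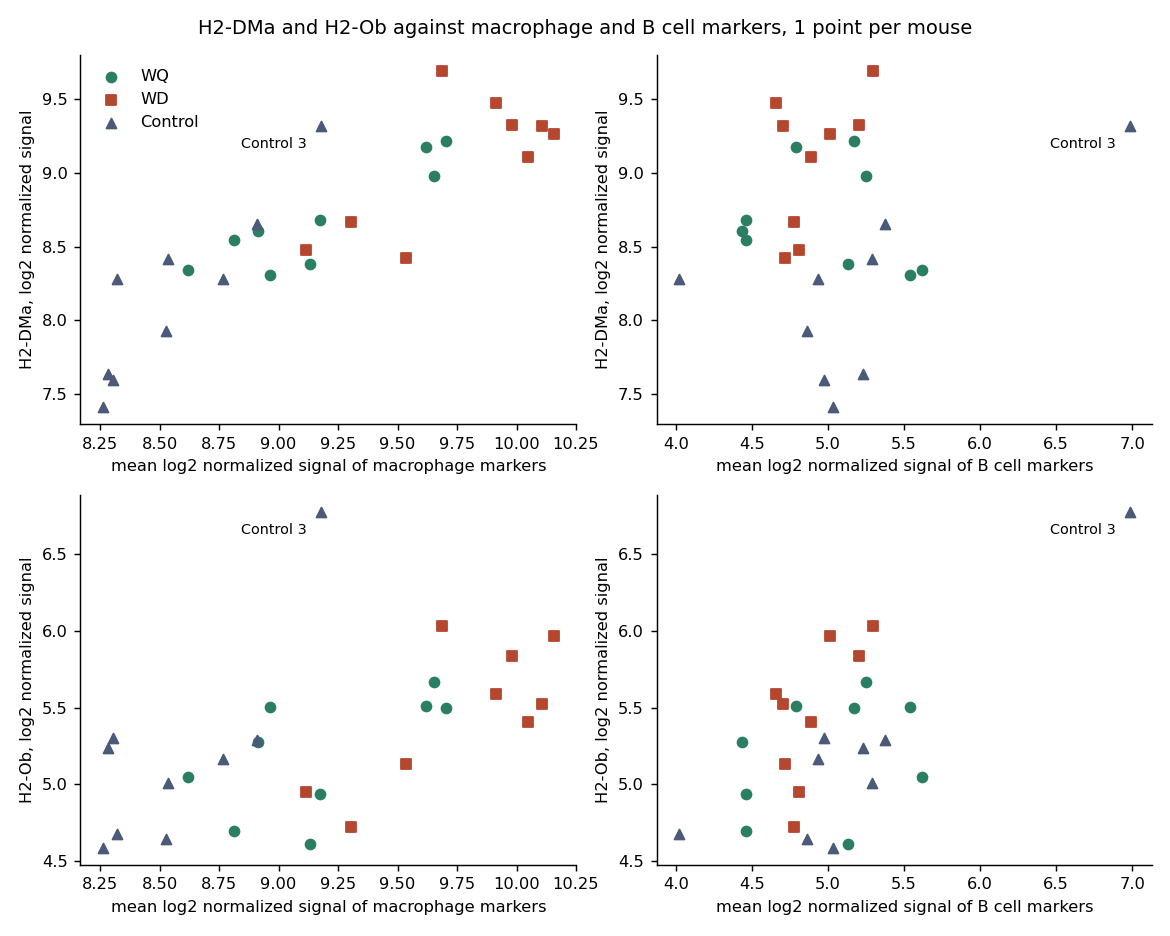
Log2 normalized signal of H2-DMa (top) and H2-Ob (bottom) against the mean log2 signal of 10 macrophage markers (left) and 9 B cell markers (right); each point is 1 mouse, green circles WQ, red squares WD, blue triangles Control. Control replicate 3 is the rightmost point on the right and the highest for H2-Ob.

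The state of the RNA differed between the diets. The log2 ratio of the 3' to the 5' probe set of actin, which is higher where RNA is shorter, was 1.14 ± 0.19 in WQ, 0.79 ± 0.12 in WD and 1.11 ± 0.29 in Control mice (SD, n = 9). It was higher in WQ than in WD mice by 0.35 (exact permutation p = 1.2e-04, adjusted p = 7.4e-04 over 6 tests) and lower in WD than in Control mice by 0.33 (exact permutation p = 0.0036, adjusted p = 0.011). The same ratio of Gapdh was higher in WQ than in WD mice by 0.24 (exact permutation p = 0.0070, adjusted p = 0.014). WD mice thus had the lowest actin ratio as well as the highest class II signals, and the part of RNA length in the changes was not tested.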

How the data were processed

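Total RNA of EAT from 27 mice, 9 per diet, was hybridized to 1 array each. The authors deposited linear signal intensity values made with Microarray Suite and GeneSpring, which were not scaled between arrays (array medians of 25.2 to 54.4). The plan had been to use them as deposited. Instead, 64 control probe sets were left out, the rest normalized between arrays by quantiles, set to at least 1 and converted to log2. A probe set annotated to several genes (932) was not used for a gene.

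Genes were tested with limma 3.58.1 in R 4.3.3, with a mean per diet, a mean-variance trend, 95% intervals and Benjamini-Hochberg adjustment over 18193 genes. The code was tested on simulated data. Pairs, RNA ratios and marker relations were tested by exact two-sided permutation over mice. The members and the 16 lists were chosen with earlier results of these data known. The genes named are the 8 members, H2-Ea and Ifng, genes of the 6 pathway lists that passed between WQ and WD mice or else up to 3 per list with the smallest p between WD and Control mice, and the 6 most like H2-Ab1 and H2-Ob. Arrays high in markers of another tissue lay over 3 scaled median absolute deviations above the median of 27 arrays.

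Alternatives were unnormalized signals, medians set equal, values raised to at least 32, 16 added before log2, only the brighter genes (above the median mean), other probe sets or their mean, array weights or no trend in limma, fits of 2 diets, a replicate block, the test of the methods (a test over the 3 diets followed by Tukey's), and arrays left out, singly or by markers of other tissues. Leaving out arrays high in liver markers was chosen after seeing the data. Some genes of the lists are not reported here. The number of arrays limits the precision. Figures were drawn with matplotlib.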

Additional observations from a re-analysis of the deposited data

Results flagged for a closer look

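Control replicate 3 stood apart from the other 8 Control mice in 2 of the 24 groups of 9 values checked with Dixon's test, where chance flags about 1 in 20. In H2-Eb1 its log2 signal was 12.30, against 10.83 to 11.57 in the others, and in H2-Ob it was 6.77, against 4.59 to 5.30. The same array was highest among Control mice in all 8 members and in B cell markers (mean log2 signal 6.98) and lymph node markers (5.52).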

How the results depend on the processing

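The 6 rises in WD over Control mice passed under all other settings, except that the test of the methods called 5 and left out H2-DMa, and fits of fewer genes tested fewer members. For WQ against WD mice, where 0 of 8 passed, 4 passed with array weights and 4 by the test of the methods, and 2 passed when only these diets were fitted. Of all 18193 genes 615, 530 and 286 were lower in WQ mice in these settings, in this order. In the same comparison 2 passed without the arrays high in testis, smooth muscle or lymph node markers, 2 without those high in liver markers, and 4 without all of these. In these fits 231, 166 and 570 of all genes were lower. Leaving out single arrays gave 0 there. For WQ over Control mice, where 0 of 8 passed, 1 passed among genes above the median mean, with array weights, with the mean of all probe sets, with the second probe set, by the test of the methods, and without the arrays high in liver markers. Genes higher in WQ than in Control mice numbered 1022 of the 9096 above the median mean, and 1074 of all genes with array weights. They numbered 646 with the mean of all probe sets and 973 by the test of the methods. Without the arrays high in liver markers they numbered 897. In that comparison 3 passed without the array high in lymph node markers (Control replicate 3), 2 without those high in testis, smooth muscle or lymph node markers, and 2 without these and those high in liver markers. Of all genes 1409, 1067 and 1121 were higher in these fits, in this order. Leaving out single arrays gave 0 to 3 there, with 1 (H2-Aa) without Control replicate 1 or without WQ replicate 3. In those fits 1173 and 1204 of all genes were higher. The cause was not tested.

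Counts over all genes moved more. Against 60 calls between WQ and WD mice, limma without a trend gave 0 and array weights gave 1381, and single arrays left out gave 0 (without WD replicate 7) to 305 (without Control replicate 6). Between WD and Control mice 3219 calls became 1817 without normalization, and between WQ and Control mice 1211 became 306 without normalization, 1915 without the 6 arrays high in markers of other tissues, 706 without WQ replicate 4 and 1859 without Control replicate 3. No scaling moved the median of all genes by over 0.1 on the log2 scale.

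Replicate numbers did not pair the mice, since deviations of same-numbered arrays correlated at -0.20 to 0.37 between WQ and WD mice. With the replicate block 6 of 8 members still passed in WD over Control mice, and 0 in the other comparisons. Calls over all genes numbered 2960 between WD and Control mice, 1053 between WQ and Control mice and 8 between WQ and WD mice. With a floor of 32, H2-Oa minus H2-DMa differed by -0.63 (exact permutation, adjusted p = 0.023) and H2-Ob minus H2-DMa by -0.55 (adjusted p = 0.033) between WQ and Control mice. That floor lay above the median H2-Oa signals of both groups (26.5 and 21.2). The -0.63 thus mostly carried H2-DMa, which was 0.52 higher in WQ than in Control mice on the log2 scale. Among relations with marker lists, those of H2-DMa in WD mice and of H2-Ob in Control mice with macrophage markers passed with arrays shifted to the same median (r = 0.76 and 0.76) and without normalization (r = 0.81 and 0.80). For H2-Ob in Control mice r fell to 0.38 without Control replicate 3 (exact permutation, adjusted p = 0.501). Without normalization the relations of H2-Ob with macrophage markers (0.81), H2-Ob with B cell markers (0.80) and Ciita with B cell markers (0.80) in WD mice also passed. That of H2-Ob with B cell markers in Control mice was lost (0.89, exact permutation, adjusted p = 0.059). Low signals of H2-Oa, H2-Ob, H2-Eb2, Ciita, Ifng and the T cell genes limit what can be seen in them.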
